A study of Homo sapiens with 24 samples.

Results

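Messenger RNA levels of 58 genes of mitosis and the spindle were followed in LNCaP cells, a hormone-sensitive human prostate cancer line, after knockdown of the deacetylase SIRT1 and under androgen and antiandrogen. The genes were chosen by name as cyclins, kinases, kinetochore, spindle and cytokinesis genes, and all 58 were found among the 23207 gene symbols of the files and were tested in every fit. The 24 libraries fell into 8 groups of 3. In the stripped-serum set, cells of a SIRT1 knockdown named 10 and cells with a non-targeting control hairpin (NTC) spent 48 h in fetal bovine serum (FBS) medium and 24 h in charcoal-stripped serum, which lacks androgens. They then had 24 h of 1 nM dihydrotestosterone with 10 µM enzalutamide (an antiandrogen that binds the androgen receptor), 1 nM dihydrotestosterone (DHT, an androgen) alone, or vehicle. In the FBS set, cells of a SIRT1 knockdown named shSIRT1 and NTC cells were kept in FBS medium. All cells carried a lentiviral hairpin, had been put through 1 µg/ml puromycin and were kept in 0.5 µg/ml as stable clones. Whether shSIRT1 and 10 share a hairpin or a clone is not in the labels, and within a set loss of SIRT1 and a difference between clones cannot be told apart.

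Entry into mitosis is driven by CDK1 bound to B-type cyclins. The kinetochore ties each chromosome to spindle microtubules, the spindle checkpoint holds back anaphase until all are attached, and the anaphase-promoting complex with CDC20 then marks cyclin B and securin for destruction. Transcripts of these genes are made mainly late in the cell cycle, under the MuvB complex with B-MYB (MYBL2) and FOXM1, and are held down in resting cells by the DREAM complex, so they are widely read as a sign of dividing cells. In bulk RNA, fewer dividing cells and less RNA of these genes per cell cannot be told apart.

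SIRT1 itself had 17.6, 21.4 and 19.4 CPM (counts scaled to a common library size) in the vehicle libraries of knockdown 10, against 56.1, 58.5 and 56.5 CPM in NTC vehicle libraries, a log2 fold change of -1.55 ± 0.09 (SE). It was also lower in knockdown 10 with DHT (-1.65 ± 0.10) and with DHT and enzalutamide (-1.56 ± 0.09), and in shSIRT1 cells in FBS (-2.24 ± 0.09). Library totals were 25.2 to 35.1 M counts in stripped serum and 11.9 to 14.2 M in FBS. All 11 luminal prostate markers were detected in each group, with sums of 2980 to 4120 TPM (a level that also corrects for transcript length), and 16 markers of other cells summed to 31.1 to 64.8 TPM. In FBS NTC cells 4 of the 16 were at 0, TP63 among them. Others were detected, such as LYZ at 7.04 to 8.85 and CD68 at 7.04 to 7.84 TPM there. VIM had 18.4 to 45.5 TPM in NTC vehicle libraries. In FBS, libraries 1 and 2 of a group were close (chi-square per gene 1.6 in shSIRT1 and 1.55 in NTC) and library 3 stood apart from both (8.89 to 9.39). In stripped serum library 1 stood apart in each NTC group (9.78 to 13.98, against 3.79 to 4.34 between libraries 2 and 3) and in knockdown 10 with DHT and enzalutamide (9.72 and 15.17, against 4.76), and in these 4 groups it had the lowest summed level of the 58 genes. In knockdown 10 with DHT, library 2 stood apart from libraries 1 and 3 (38.55, the farthest of any pair, and 22.43, against 12.47 between them). It had the lowest summed level of its group, 812.1 TPM, and stayed in when library 1 of the 4 groups was left out. In knockdown 10 with vehicle, libraries 1 and 2 were farthest apart (20.83, against 9.52 and 8.31 for the other pairs).

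Promoters of these genes are known for a cell cycle homology region (CHR), which binds MuvB, and for CCAAT boxes, which bind NF-Y. RefSeq windows of GRCh38.p14, from 250 bases before to 50 after a gene's start, were matched by symbol for 51 of the 58 genes. The CHR letters TTTGAA or TTCGAA, read on both strands, lay in the windows of 39 of the 51 genes (76.5%), against 19.5% of 27305 genes in the table. CCAAT, read on both strands, also lay in 39 (76.5%, against 39.7%), and both motifs in 60.8%, against 9.0%. Of the 39 genes with a CHR match, 37 had one that started between 100 bases before and 50 after the start site, and over the 55 matches in all windows the median position was -28. In lists of related genes a CHR match lay in 13 of 23 other spindle, midzone and cytokinesis genes, 7 of 14 other condensin and cohesin genes, 11 of 23 other kinetochore genes, 3 of 5 genes of inhibitory kinases and PP2A, 5 of 10 MuvB and DREAM genes, 5 of 15 genes of the anaphase-promoting complex and 1 of 19 replication genes. A match describes letters in the window and shows no binding.

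The windows of 4 genes are shown whole because they differ in these letters. CCNB1, CDK1 and PLK1 fell in knockdown 10 with vehicle and SPC25 did not pass the test there. Capitals mark the CHR letters and the CCAAT box on either strand. CCNB1 (chr5:69166900-69167199, plus strand) had 2 CCAAT boxes and no CHR letters, CDK1 (its second window, chr10:60778228-60778527, plus strand) had 3 CHR matches and 2 CCAAT boxes, PLK1 (chr16:23678639-23678938, plus strand) had 1 of each, and SPC25 (chr2:168890381-168890680, minus strand) had 2 of each.
CCNB1: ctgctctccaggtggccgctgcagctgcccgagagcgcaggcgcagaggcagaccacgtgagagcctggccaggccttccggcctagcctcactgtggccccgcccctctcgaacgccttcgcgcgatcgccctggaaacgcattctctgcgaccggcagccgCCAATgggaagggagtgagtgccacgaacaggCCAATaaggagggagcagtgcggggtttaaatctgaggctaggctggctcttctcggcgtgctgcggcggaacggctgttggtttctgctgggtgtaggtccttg
CDK1: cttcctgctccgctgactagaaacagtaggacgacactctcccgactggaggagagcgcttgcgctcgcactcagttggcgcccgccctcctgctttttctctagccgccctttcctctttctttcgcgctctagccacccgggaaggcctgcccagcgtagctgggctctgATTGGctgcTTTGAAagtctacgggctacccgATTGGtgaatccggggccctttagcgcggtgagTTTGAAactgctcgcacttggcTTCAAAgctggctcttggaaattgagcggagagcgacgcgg
PLK1: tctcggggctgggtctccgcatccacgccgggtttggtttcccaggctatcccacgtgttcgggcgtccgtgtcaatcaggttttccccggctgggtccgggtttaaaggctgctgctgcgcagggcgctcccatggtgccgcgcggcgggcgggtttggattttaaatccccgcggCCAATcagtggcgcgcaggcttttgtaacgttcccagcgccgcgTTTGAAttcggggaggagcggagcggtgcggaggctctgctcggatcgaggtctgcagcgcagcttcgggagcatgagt
SPC25: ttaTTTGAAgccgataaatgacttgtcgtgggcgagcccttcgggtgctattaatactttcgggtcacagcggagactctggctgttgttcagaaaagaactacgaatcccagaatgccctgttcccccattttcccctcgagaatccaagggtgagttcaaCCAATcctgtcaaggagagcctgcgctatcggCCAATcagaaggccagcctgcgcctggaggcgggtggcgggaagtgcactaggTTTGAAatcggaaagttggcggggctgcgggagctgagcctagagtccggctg

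Stretches of 50 bases around a CHR match show how the letters lie in 6 more promoters. MKI67 has 2 matches, of which the second overlaps an ATTGG.
CCNB2: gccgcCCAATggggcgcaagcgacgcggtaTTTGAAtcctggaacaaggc
CDC20: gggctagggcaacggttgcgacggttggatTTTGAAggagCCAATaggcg
TOP2A: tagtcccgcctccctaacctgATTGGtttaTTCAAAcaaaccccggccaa
MKI67: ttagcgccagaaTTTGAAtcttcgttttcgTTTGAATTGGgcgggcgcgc
BUB1: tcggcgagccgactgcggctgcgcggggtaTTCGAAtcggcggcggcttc
KIF11: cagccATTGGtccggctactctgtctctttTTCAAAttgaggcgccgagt

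Summed over the 58 genes, the level was lowest in knockdown 10 with DHT and enzalutamide and highest, within stripped serum, in NTC cells with DHT. It was 354.1, 392.8 and 409.6 TPM in knockdown 10 with DHT and enzalutamide, against 690.6, 935.9 and 939.8 TPM in NTC cells with both. With DHT alone it was 1163, 812.1 and 1115 TPM in knockdown 10, against 2455, 2842 and 3106 TPM in NTC cells. With vehicle it was 462.9, 441.6 and 477.5 TPM in knockdown 10, against 880.5, 1100 and 1106 TPM in NTC cells. The knockdown libraries thus lay below all NTC libraries of the same treatment, and their range with DHT overlapped that of NTC cells with vehicle. Each of the 58 genes had its highest stripped-serum mean in NTC cells with DHT, and 55 had their lowest in knockdown 10 with DHT and enzalutamide and 3 in knockdown 10 with vehicle. Levels in FBS (5245, 5261 and 3584 TPM in shSIRT1, and 4835, 4896 and 3771 TPM in NTC) come from a set with other RSEM settings and were not tested against stripped serum. By TPM, which corrects for length, CKS2 and CDK1 led in all 8 groups, at 388 ± 43.1 and 326 ± 24.2 TPM (SD, n = 3) in NTC cells with DHT, and KIF14 was the lowest in each group of knockdown 10, at 0.287 ± 0.0945 TPM with DHT and enzalutamide.

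**Figure D1:**
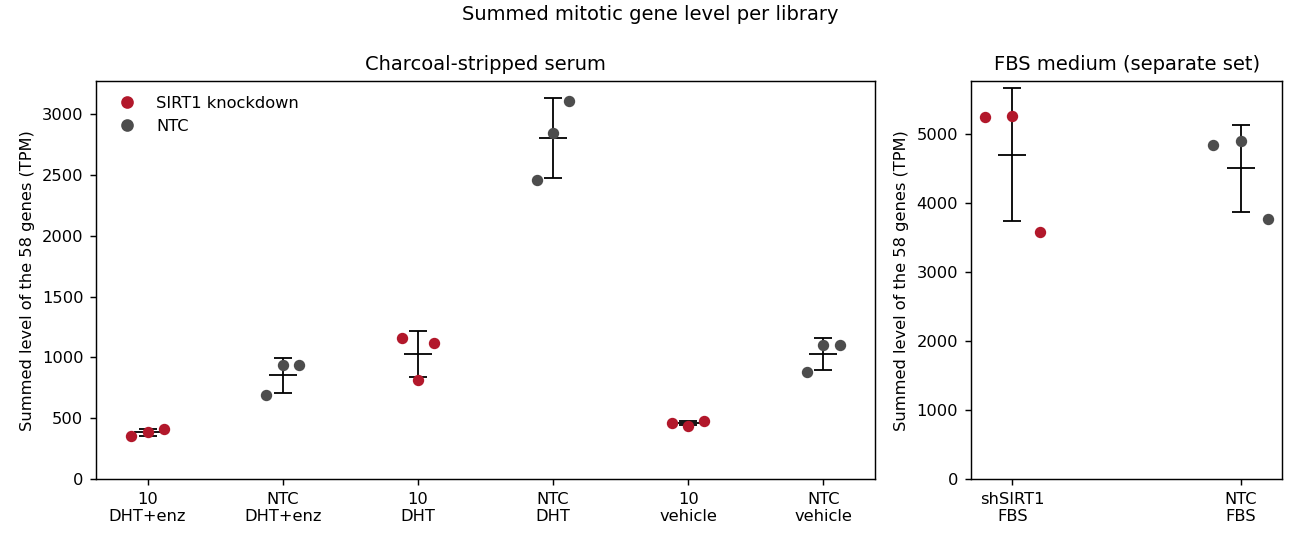
Summed level of the 58 genes in TPM (vertical axis) in each library, with group mean and SD (n = 3), in stripped serum (left) and in the separate FBS set (right). In stripped serum the knockdown libraries lie below the NTC libraries of the same treatment, while in FBS shSIRT1 and NTC libraries overlap and library 3 is the lowest of each group.

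The first question was whether knockdown 10 changed these genes in stripped serum. With vehicle, 56 of 58 genes fell and none rose, where 19.1% of the 14558 genes tested fell and 15.5% rose. With DHT all 58 fell (23.5% of all genes fell and 19.5% rose), and with DHT and enzalutamide 56 fell and none rose (19.2% and 15.4%). All 58 fitted changes were below 0 in each of these comparisons. The median log2 fold change was -1.60 with vehicle, -1.58 with DHT and -1.59 with DHT and enzalutamide, where the median of all genes was within 0.004 of 0. The values of the knockdown libraries lay wholly below those of NTC for 56, 58 and 56 of the genes in that order of treatments. By the same measure, 3659 of all 14558 genes lay wholly lower and 3245 wholly higher with vehicle. These numbers were 3668 and 3177 with DHT, and 3759 and 3326 with both compounds. With library 1 left out of the 4 groups where it stood apart, a setting chosen after seeing the data, 57 genes fell with vehicle, 58 with DHT and 56 with both compounds, and none rose. With vehicle and with DHT this setting removed only the NTC library of lowest summed level. It was thus tilted toward a larger fall and is no separate support. The shares of all genes were not taken in it.

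Among genes of mitotic entry, 9 of 10 fell with vehicle, 10 of 10 with DHT and 9 of 10 with both compounds. CCNB1, which encodes cyclin B1, had 22.2, 20.9 and 21.8 CPM in knockdown 10 with vehicle, against 42.6, 50.7 and 49.5 CPM in NTC cells. Its log2 fold change was -1.14 ± 0.11 (SE, adjusted p = 6.68e-07). With DHT CCNB1 had 40.6, 31.5 and 33.2 CPM in knockdown 10, against 92.2, 102 and 115 CPM in NTC cells (-1.55 ± 0.11). The knockdown values lay below every NTC value of the same treatment. CDK1, the kinase that cyclin B activates, had 65, 54.4 and 62.1 CPM in knockdown 10 with vehicle, against 111, 126 and 120 CPM in NTC cells (-0.98 ± 0.12, adjusted p = 6.07e-06), and fell by 1.37 on the log2 scale with DHT. NEK2, a centrosome kinase, fell most in this group, by 1.78 on the log2 scale with vehicle. The polo-like kinase PLK1 fell by 1.31 and the CDK subunit CKS1B by 0.72 on that scale with vehicle.

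Both transcription factors of the set fell in all 3 treatments. FOXM1, which activates late cell cycle genes, had 17, 13.8 and 16 CPM in knockdown 10 with vehicle, against 34.4, 38.9 and 39.7 CPM in NTC cells (-1.27 ± 0.15, adjusted p = 6.26e-06). MYBL2, the B-MYB partner of MuvB, changed by -1.48 ± 0.19 with vehicle and by -1.32 ± 0.16 with DHT. All 4 genes of the chromosomal passenger complex, which corrects faulty attachments, fell in each treatment. Its subunit survivin, BIRC5, had 5.94, 4.83 and 7.02 CPM in knockdown 10 with vehicle, against 19.7, 23.3 and 22.7 CPM in NTC cells, a 3.69-fold lower level (log2 fold change -1.89 ± 0.15, adjusted p = 4.44e-08). The complex's scaffold INCENP moved least of the 4, at -0.87 with vehicle.

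Of 8 centromere and outer kinetochore genes, 7 fell with vehicle, 8 with DHT and 7 with both compounds. NDC80, the kinetochore subunit that grips microtubules, had 4.65, 4.11 and 4.55 CPM in knockdown 10 with vehicle, against 14.7, 17.5 and 15.8 CPM in NTC cells (-1.84 ± 0.17, adjusted p = 2.64e-07). CENPF, a large kinetochore protein of late cell cycle, fell by 2.01 on the log2 scale with vehicle, and its level with DHT was 4.01-fold lower. CENPA, the histone H3 variant of centromeres, had 0.673, 0.789 and 0.66 CPM in knockdown 10 with vehicle, against 1.88, 4.1 and 2.59 CPM in NTC cells, 4.01-fold lower (adjusted p = 8.14e-05). All 4 checkpoint genes fell in each treatment, and the checkpoint kinase BUB1 had 5.94, 4.87 and 5.08 CPM in knockdown 10 with vehicle, against 13.6, 17.4 and 16.5 CPM in NTC cells (-1.58 ± 0.17).

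All 11 genes of spindle motors and microtubule proteins and all 7 of the midzone and cytokinesis fell in each treatment. KIF11, the motor that pushes spindle poles apart, had 7.74, 8.65 and 8.57 CPM in knockdown 10 with vehicle, against 14.8, 19.6 and 20 CPM in NTC cells (-1.12 ± 0.17, adjusted p = 4.4e-05). KIF14, a kinesin of cytokinesis, had the lowest fitted change of the 58 genes in all 3 treatments. With vehicle it had 1.93, 1.35 and 1.71 CPM in knockdown 10, against 7.96, 10.7 and 11 CPM in NTC cells, 5.93-fold lower (-2.57 ± 0.23, adjusted p = 2.69e-07). The change of KIF14 was -2.55 ± 0.20 with DHT and -2.65 ± 0.25 with both compounds. KIF20A, a midzone kinesin that brings PLK1 to the cleavage plane, had 1.65, 2.32 and 1.9 CPM in knockdown 10 with both compounds, against 8.03, 10.7 and 13 CPM in NTC cells (-2.42 ± 0.22). The knockdown and NTC values of these 3 kinesins did not overlap.

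The 4 genes of anaphase and proteolysis and the 6 of chromosome structure fell in each treatment. CDC20, the activator of the anaphase-promoting complex, had 5.69, 5.1 and 5.01 CPM in knockdown 10 with vehicle, against 15.8, 20 and 20.1 CPM in NTC cells (-1.82 ± 0.17, adjusted p = 4.21e-07). PTTG1, which encodes securin, fell by 1.51 on the log2 scale with vehicle, and since near-identical copies of it exist its reads may be shared among them. TOP2A, the topoisomerase that untangles sister chromatids, had 14.6, 16.3 and 17.5 CPM in knockdown 10 with vehicle, against 43.5, 65.8 and 61.7 CPM in NTC cells. MKI67, which encodes the proliferation antigen Ki-67, had 12.6, 12.9 and 14.9 CPM there, against 39.6, 46.3 and 57.8 CPM in NTC cells (-1.83 ± 0.19, adjusted p = 1.4e-06). The condensin ATPases SMC2 and SMC4 moved less, at -0.63 ± 0.12 and -0.70 ± 0.11 with vehicle, where the condensin subunit NCAPG changed by -1.80 ± 0.18.

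**Figure D2:**
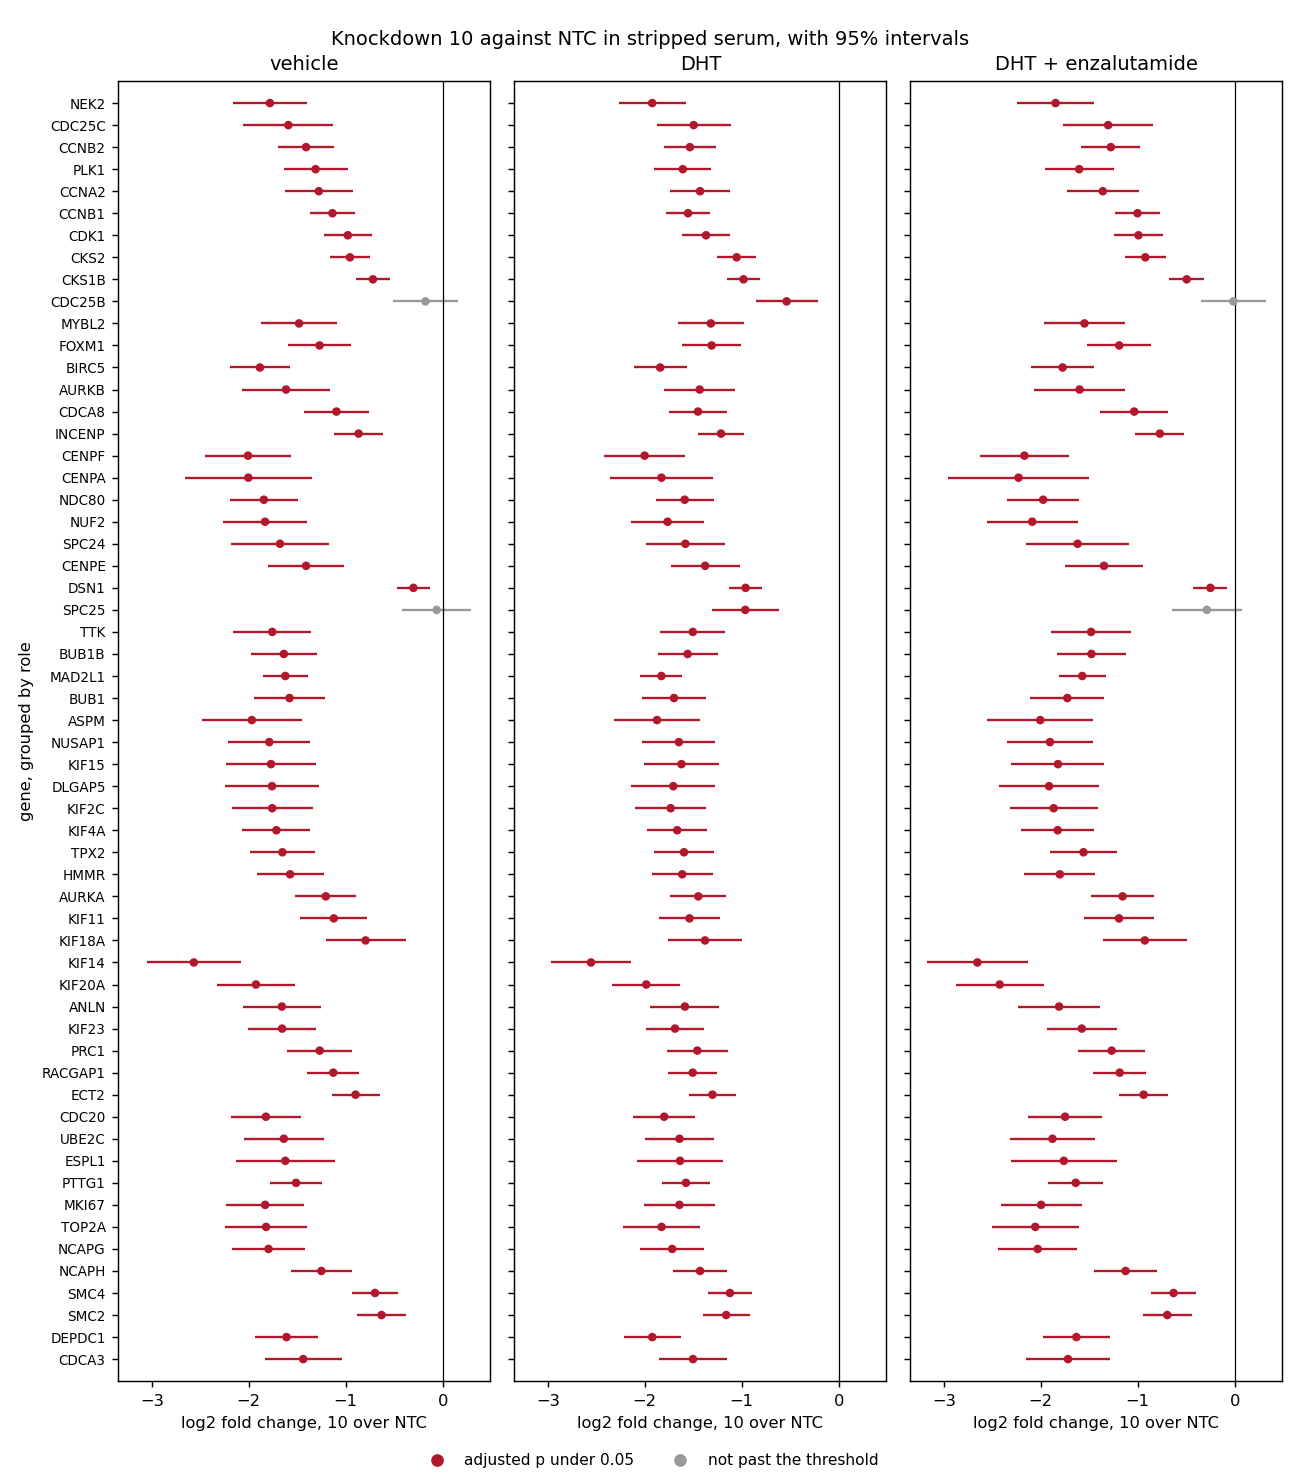
Log2 fold change of knockdown 10 over NTC (horizontal axis) with its 95% interval for each of the 58 genes (vertical axis, grouped by role) with vehicle, DHT, and DHT with enzalutamide. Red genes passed the adjusted p threshold of 0.05 and grey genes did not, and KIF14 lies farthest left in every panel while CDC25B, SPC25 and DSN1 lie nearest 0.

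CDC25B, SPC25 and DSN1 had the smallest changes. CDC25B, a phosphatase that activates CDK1, had 15.8, 20.3 and 17.6 CPM in knockdown 10 with vehicle, against 16.8, 22.2 and 21.6 CPM in NTC cells (log2 fold change -0.18, 95% interval -0.51 to 0.15, adjusted p = 0.414, and 0.0456 with library 1 left out of the 4 groups where it stood apart). That setting took out the lowest NTC value, 16.8 CPM, which by itself widens the fall. SPC25, a subunit of the NDC80 complex, had 11.1, 9.04 and 8.21 CPM in knockdown 10 with vehicle, against 8.03, 10.9 and 10.7 CPM in NTC cells (-0.06, interval -0.42 to 0.29, adjusted p = 0.809). The libraries of both genes overlapped between the groups. With both compounds the changes were -0.01 for CDC25B (interval -0.35 to 0.32) and -0.29 for SPC25 (interval -0.65 to 0.08). With DHT, SPC25 had 9.47, 10.8 and 12.6 CPM in knockdown 10, against 17.8, 22.5 and 23.9 CPM in NTC cells, and fell by 0.96 on the log2 scale (adjusted p = 0.000131), and CDC25B fell by 0.54 (adjusted p = 0.00867). DSN1, a subunit of the MIS12 complex of the kinetochore, changed by -0.30 ± 0.08 with vehicle, -0.96 ± 0.08 with DHT and -0.25 ± 0.08 with both compounds. The DSN1 calls with vehicle (adjusted p = 0.0772 without NTC library 2) and with both compounds (0.0787 to 0.093 without NTC library 2 or 3 or knockdown library 1 or 2) were lost when those libraries were left out. The vehicle call was also lost when only the groups compared were fitted (0.0518), and both calls in the limma fit of TPM (0.0625 with vehicle and 0.112 with both compounds).

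**Figure D3:**
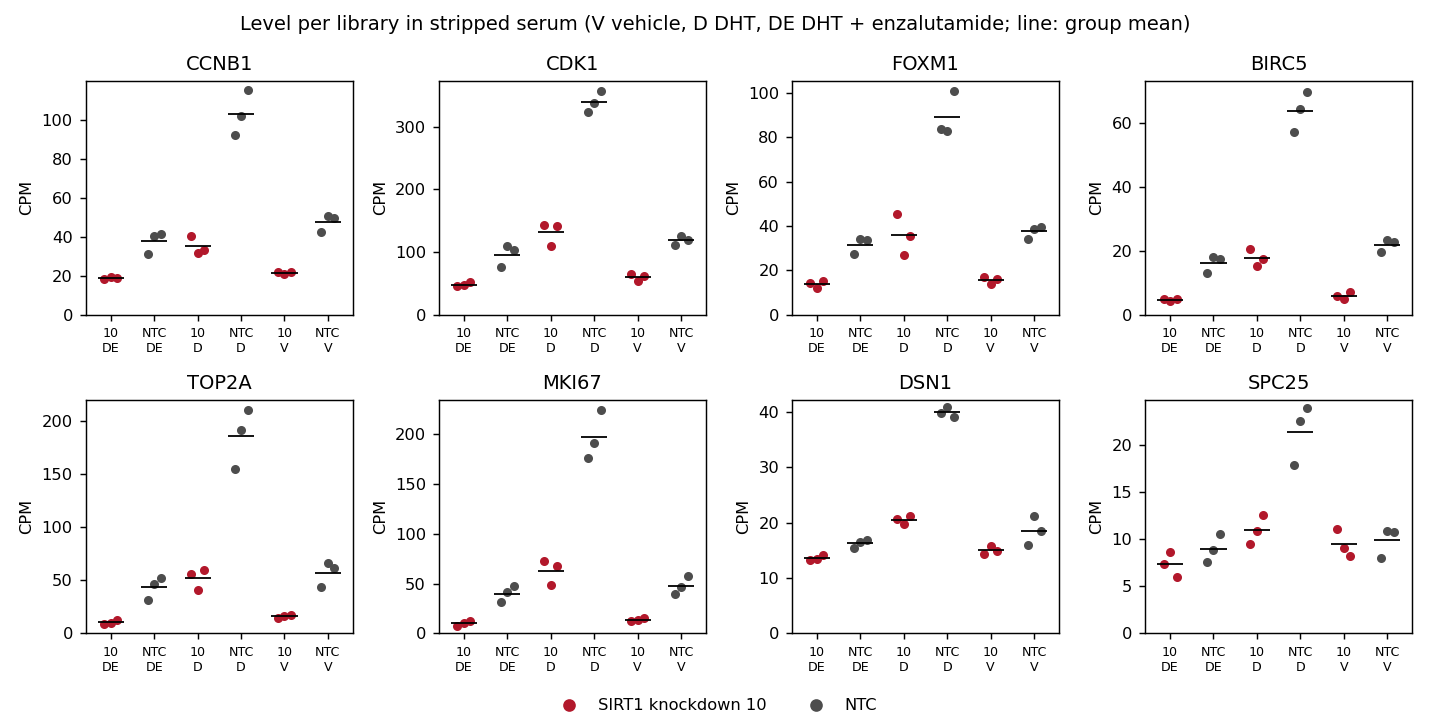
CPM (vertical axes, from 0) of 8 genes in each stripped-serum library by group, with group means as lines. For CCNB1, CDK1, FOXM1, BIRC5, TOP2A and MKI67 the knockdown points lie below the NTC points of the same treatment, while for SPC25 they overlap with vehicle, where knockdown libraries had 11.1, 9.04 and 8.21 CPM.

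Genes around this set moved to different extents in knockdown 10 over NTC, where 19.1% of all genes fell and 15.5% rose with vehicle. Of 25 other spindle, midzone and cytokinesis genes, 22 fell with vehicle (median log2 fold change -1.18), led by FAM83D at -2.03 ± 0.20, and of 31 other centromere and kinetochore genes 22 fell (median -0.62), led by HJURP, the chaperone of CENPA, at -1.75 ± 0.23. Of 17 other condensin and cohesin genes, 9 fell and 2 rose with vehicle (median -0.19), and 14 fell and 1 rose with DHT (median -0.56), where 23.5% of all genes fell and 19.5% rose. Of these, the condensin genes NCAPD2 and NCAPD3 and the cohesin gene RAD21 had a lower response to DHT in knockdown 10 than in NTC cells (differences -0.56, -0.61 and -0.41, adjusted p = 0.0235, 0.00365 and 0.0334). Of all genes 0.158% were lower and 0.0412% higher in that test. These calls were not checked in the alternative fits. The cohesin protector SGOL1 fell by 1.74 on the log2 scale, while the cohesin loader NIPBL rose by 0.22. Of 15 genes of the anaphase-promoting complex and its partners, 4 fell and 2 rose with vehicle (median -0.02), FBXO5, an inhibitor of the complex, being lowest at -0.54 ± 0.15. A list of 8 genes held opposing roles, since the kinases WEE1 and PKMYT1 and the phosphatase PP2A restrain mitotic entry while MASTL, ENSA and ARPP19 act against PP2A. In it PKMYT1, which phosphorylates CDK1, fell by 1.501 and MASTL by 0.32 on the log2 scale, and the PP2A subunit PPP2R2A rose by 0.19 and ENSA by 0.15. The counts of called genes in these last 2 lists were near the shares of all genes. Of 11 MuvB and DREAM genes 5 fell and 1 rose, LIN9 of MuvB changing by -0.96 ± 0.13 and the pocket protein RBL2 by 0.46 ± 0.10. Of 21 replication genes 20 fell with vehicle (median -0.59) and 21 with DHT (median -1.04).

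The second question was how DHT changed the genes. In knockdown 10, 57 of 58 rose with DHT over vehicle and none fell (13.3% of all genes rose and 8.92% fell). In NTC cells all 58 rose (17.4% rose and 12.5% fell). The medians were 1.57 in knockdown 10 and 1.61 in NTC cells on the log2 scale. The 2 contrasts share no library, and across the 58 genes their changes had a Pearson r of 0.93, a description in which genes are not independent. MKI67 had 72.7, 48.5 and 67.8 CPM in knockdown 10 with DHT, against 12.6, 12.9 and 14.9 CPM with vehicle (2.22 ± 0.19, adjusted p = 3.36e-07). In NTC cells MKI67 had 176, 191 and 224 CPM with DHT, against 39.6, 46.3 and 57.8 CPM with vehicle (2.04 ± 0.18). DHT and vehicle libraries did not overlap in either line, and library 2 of knockdown 10 was the lowest of its DHT group. MYBL2 rose by 2.21 ± 0.19 in knockdown 10 and 2.05 ± 0.17 in NTC cells, and NCAPG by 2.06 ± 0.18 and 1.98 ± 0.16. At the other end, CKS2, a CDK1-binding subunit, rose by 0.88 ± 0.10 in knockdown 10 and 0.97 ± 0.09 in NTC cells. SPC25 in knockdown 10 missed the threshold (0.21 ± 0.17, adjusted p = 0.406), where in NTC cells it rose by 1.12 ± 0.16. The call of CDC25B in knockdown 10 (0.49 ± 0.16, adjusted p = 0.0326) was lost without vehicle library 1 or 3 or any DHT library (adjusted p 0.056 to 0.127).

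Enzalutamide added to DHT was compared with DHT alone. In knockdown 10, 57 of 58 genes fell and none rose (12.2% of all genes fell and 8.08% rose), and in NTC cells all 58 fell (16.6% fell and 12.6% rose), with medians of -1.94 and -1.97. KIF20A had 1.65, 2.32 and 1.9 CPM in knockdown 10 with both compounds, against 14.3, 10.4 and 13 CPM with DHT (-2.67 ± 0.22, 6.37-fold lower). In NTC cells KIF20A had 8.03, 10.7 and 13 CPM with both, against 40.8, 51 and 57.4 CPM with DHT (-2.23 ± 0.17). TOP2A had 8.32, 9.91 and 12.8 CPM in knockdown 10 with both compounds, against 55.6, 40.9 and 60 CPM with DHT. The groups were apart for all 58 genes in knockdown 10, each lower with both compounds. Of all 14558 genes, 2487 lay wholly lower there and 2060 wholly higher. CDC25B alone missed the threshold there (-0.41 ± 0.16, adjusted p = 0.0757), and it passed in a fit with a replicate block (adjusted p = 0.000184). SPC25 fell there by 0.58 on the log2 scale (adjusted p = 0.0248), a call lost without DHT library 3 or both-compound library 1 or 3 (adjusted p 0.0594 to 0.137). CKS2 had one of the smaller changes in NTC cells, at -1.22 ± 0.09.

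**Figure D4:**
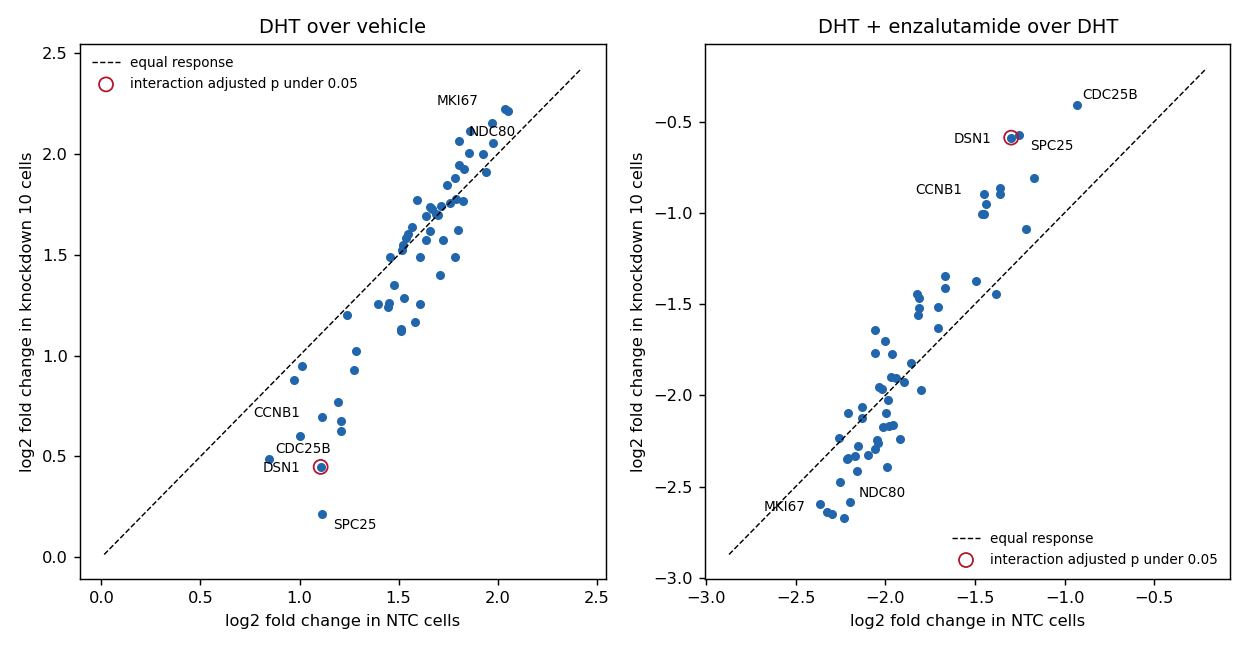
Log2 fold change in knockdown 10 cells (vertical axes) against that in NTC cells (horizontal axes) for DHT over vehicle (left) and DHT with enzalutamide over DHT (right), each point being 1 of the 58 genes. Points lie near the dashed line of equal response, with DSN1 (circled, the gene past the interaction threshold) and SPC25 showing smaller responses in knockdown 10.

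The response to DHT was then tested for a difference between knockdown 10 and NTC cells. By the interaction term, 1 gene had a lower response in knockdown 10 and none a higher one (0.158% of all genes lower and 0.0412% higher). The gene was DSN1, which had 20.6, 19.7 and 21.3 CPM in knockdown 10 with DHT, against 14.4, 15.8 and 14.9 CPM with vehicle, and 39.9, 40.9 and 39.1 CPM in NTC cells with DHT, against 15.9, 21.3 and 18.5 CPM with vehicle (difference -0.66 ± 0.12, adjusted p = 0.0235). The call was lost without NTC vehicle library 1 or 3, any NTC library with DHT or knockdown vehicle library 3 (adjusted p 0.0517 to 0.0653), and with library 1 left out of the 4 groups where it stood apart (0.0954). The call was also lost when only the groups compared were fitted (0.119) and in the limma fit of TPM (0.0867). It was kept with a replicate block, which added SPC25 (difference -0.92, adjusted p = 0.0244 with the block, and -0.90 ± 0.24, 0.134 without), and with the block 1.63% of all genes were lower and 1.31% higher. For the enzalutamide response, 1 gene had a higher difference and none a lower one (0.268% and 0.0824%), again DSN1 (0.71 ± 0.12, adjusted p = 0.0103). The replicate block raised this to 4 genes, adding CCNB1, CDC25B and CKS1B, where 2.29% of all genes were then higher and 1.64% lower. The 2 interactions share the DHT libraries. A missed threshold does not show equal responses. The 95% interval of the difference lay within 1 log2 unit of 0 for 55 genes with DHT and 54 with enzalutamide, and within 0.5 for 5 and 4.

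DHT with enzalutamide was also compared with vehicle. In knockdown 10 no member passed the threshold in either direction by edgeR, DESeq2 or limma, 18 had an unadjusted p under 0.05, and 55 of 58 fitted changes were below 0 (median -0.37). In NTC cells no member passed by edgeR, DESeq2 or limma, 22 had an unadjusted p under 0.05, and all 58 were below 0 (median -0.31). Over all genes 0% fell and 0.00687% rose in knockdown 10, and 0% fell and 0% rose in NTC cells, with 477 and 453 genes at an unadjusted p under 0.05. Of all 14558 genes, 7158 fitted changes were below 0 in knockdown 10 and 7176 in NTC cells. Libraries with both compounds lay wholly below vehicle for 31 members in knockdown 10 and 14 in NTC cells, and wholly above for 1 and 0. Among all genes, 671 lay wholly lower and 698 wholly higher in knockdown 10, and 632 and 689 in NTC cells. KIF20A was lowest in knockdown 10, at 1.65, 2.32 and 1.9 CPM with both compounds, against 3.67, 3.45 and 3.96 CPM with vehicle (-0.91 ± 0.24). CDC20 in NTC cells had 10.1, 14.6 and 15.1 CPM with both compounds, against 15.8, 20 and 20.1 CPM with vehicle (-0.49 ± 0.16). These libraries did not overlap for either gene, yet neither passed the adjustment (adjusted p = 1 for each). A missed threshold does not show that levels with both compounds equalled those with vehicle.

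Knockdown 10 with DHT was set against NTC cells with vehicle, which differ in hairpin and in treatment. The summed levels overlapped, 5 genes were lower and 4 higher (17.2% and 18.4% of all genes), and the median was 0.07. The lower genes were KIF14 (-0.87 ± 0.20), PTTG1 (-0.56 ± 0.12), NEK2 (-0.53 ± 0.17), CCNB1 (-0.44 ± 0.11) and the checkpoint gene MAD2L1 (-0.38 ± 0.11). The higher genes were MYBL2 (0.73 ± 0.17), the kinase gene AURKB (0.54 ± 0.19), the condensin gene NCAPH (0.37 ± 0.14) and CKS1B (0.30 ± 0.08). KIF14 had 6.01, 3.88 and 6.42 CPM in knockdown 10 with DHT, against 7.96, 10.7 and 11 CPM in NTC cells with vehicle, and MYBL2 had 35.1, 21.4 and 27.1 CPM, against 15.7, 15.5 and 19 CPM. Neither gene's libraries overlapped. The shares of lower and of higher genes were both below those of all genes in the main fit. Shares of all genes are not given for the fits that left out libraries. The counts moved with single libraries, to 8 lower and 2 higher without DHT library 1 of knockdown 10, to 9 higher without its DHT library 2, to 2 higher without NTC vehicle library 1, and to 9 lower and 3 higher with library 1 left out of the 4 groups where it stood apart. The NEK2 call was lost without NTC vehicle library 2 or 3 or DHT library 2 of knockdown 10 (adjusted p 0.0539 to 0.0875), and the AURKB call without NTC vehicle library 1 or 2 or DHT library 1 of knockdown 10 (0.0705 to 0.112). The NCAPH call was lost without NTC vehicle library 1 or 3 or DHT library 1 or 3 of knockdown 10 (0.0862 to 0.266) and when only the groups compared were fitted (0.0972). In the limma fit of TPM the NEK2, AURKB and NCAPH calls were lost too (adjusted p = 0.0509, 0.0584 and 0.158).

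In FBS medium none of the 58 genes passed the threshold in shSIRT1 against NTC cells by edgeR, DESeq2 or limma, and 2 had an unadjusted p under 0.05. Over all 14329 genes tested 2.21% were lower and 0.509% higher, with 2423 at an unadjusted p under 0.05. The median log2 fold change of the 58 genes was 0.11, and all 58 had overlapping libraries. Of the 14329 genes, 1731 lay wholly lower and 1506 wholly higher. MKI67 had 306, 323 and 206 CPM in shSIRT1, against 255, 267 and 204 CPM in NTC cells, and CCNB1 had 213, 220 and 160 CPM, against 206, 209 and 162 CPM. In both groups library 3 was low. TOP2A was highest by fit (0.28 ± 0.11, adjusted p = 0.232) and MAD2L1 lowest (-0.36 ± 0.18, adjusted p = 0.351). In a fit with a replicate block, 2 genes were lower (MAD2L1 and KIF14) and 3 higher (CCNB2, TOP2A and MKI67), where 7.22% of all genes were then lower and 4.47% higher. Without shSIRT1 library 3, 2 genes were higher (TOP2A and TTK). The share of all genes is not given for that fit. The 95% interval lay within 1 log2 unit of 0 for all 58 genes and within 0.5 for 47.

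The knockdown change with vehicle in stripped serum was compared with that in FBS in 1 fit of 12 libraries. It was lower for 55 of 58 genes and higher for none (6.29% of all genes lower and 7.47% higher), with a median difference of -1.62. KIF14 differed most (-2.25 ± 0.25, adjusted p = 0.000109), then CENPA (-2.09 ± 0.33) and TOP2A (-2.06 ± 0.20). MKI67 differed by -1.99 ± 0.24 and CCNB1 by -1.13 ± 0.17. The other 3 genes were SPC25 (0.01, interval -0.32 to 0.33), CDC25B (-0.05, interval -0.51 to 0.42) and DSN1 (-0.47 ± 0.17, adjusted p = 0.081, and 0.039 with the replicate block). That block assumes that same-numbered libraries of the FBS and stripped-serum sets go together, which was not checked. Serum, the name of the knockdown and the library set changed together between the sets and cannot be told apart.

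**Figure D5:**
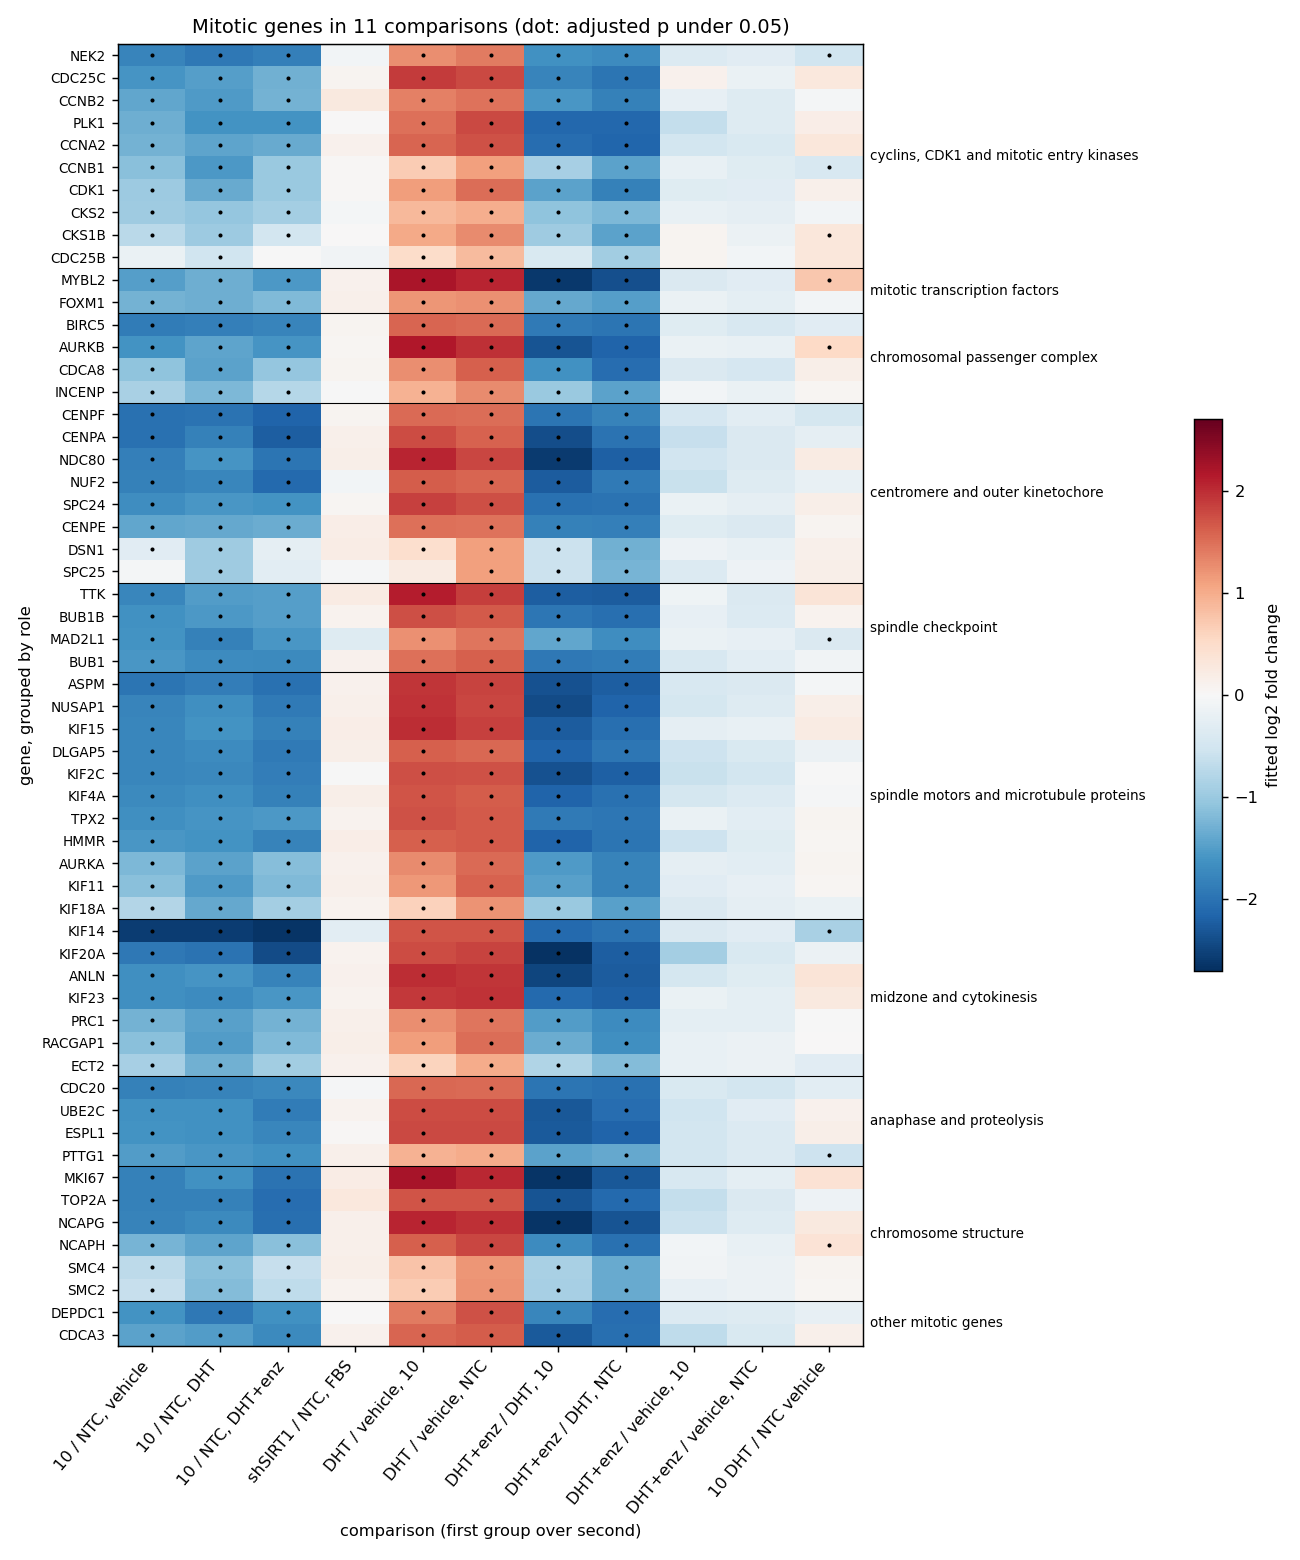
Fitted log2 fold change (colour, blue lower and red higher in the first group) of the 58 genes (rows, grouped by role) in 11 comparisons (columns, first group over second), with a dot where the adjusted p was under 0.05. The columns of knockdown 10 over NTC and of enzalutamide with DHT over DHT are blue in nearly every row, those of DHT over vehicle red, and that of shSIRT1 over NTC in FBS holds no dot.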

How the data were processed

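RNA of 24 LNCaP libraries was measured by stranded mRNA sequencing, per the labels. The submitters' processing notes name CASAVA 1.8.2, RSEM 1.2.31 and hg19, and the aligner is not given in the sources used here. The authors deposited RSEM expected counts, TPM and FPKM for each gene symbol. FPKM was not used. Expected counts were rounded to whole numbers, filtered with filterByExpr by group, scaled with TMM and tested by quasi-likelihood F tests, two-sided, in edgeR 4.0.16 (R 4.3.3). Calls had a Benjamini-Hochberg adjusted p under 0.05 over all genes of a comparison. There were 14 comparisons, 3 of them interactions, with no adjustment across them. The FBS fit held 6 libraries and 14329 genes, the stripped-serum fit 18 and 14558, and the joint fit 12 and 15345. The SE is the log2 fold change over the square root of F. Intervals are 95%. CPM used TMM library sizes, and summed levels used the deposited TPM. RSEM run settings differed between the sets, so no test compares levels between them.

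Nothing in the labels says that replicates came from separate cultures, so p-values measure the spread between these samples, which may be technical. Replicates were compared by chi-square over genes with at least 20 summed counts. Same-numbered libraries deviated together (correlations of 0.12 to 0.78) in every direct comparison except knockdown 10 with DHT against NTC with vehicle (-0.03 to 0.4). The numbers were therefore taken to pair the samples from the data, not the labels. This pairing is uncertain, since some libraries correlated best with a library of another number. That was so in FBS and in knockdown 10 against NTC with both compounds. It was also so for DHT over vehicle in knockdown 10, and for both compounds over DHT and over vehicle in NTC cells. The main fits did not use the pairing, and only the replicate block did. Alternatives were DESeq2 1.42.0, limma 3.58.1 on log2(TPM + 1), other size factors, no filter, other sample sets, a replicate block, leaving out each library and, added after seeing the data, leaving out library 1 of 4 groups or summing FBS libraries 1 and 2. Scripts were tested on simulated data. Named genes are 11 chosen by role and the 3 highest and 3 lowest of each comparison, with others chosen after their values were seen. Members and lists were chosen with earlier results of these data known.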

Additional observations from a re-analysis of the deposited data

Results flagged for a closer look

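Changes were compared between settings by a test of the difference itself. The knockdown change with vehicle in stripped serum differed from that in FBS for 55 of the 58 genes, each lower, where 6.29% of all genes were lower and 7.47% higher. Among the genes chosen by role, the difference was -1.13 for CCNB1, -0.97 for CDK1, -1.36 for FOXM1, -1.91 for BIRC5, -1.96 for NDC80 and -1.65 for BUB1 on the log2 scale. It was -1.23 for KIF11, -1.98 for KIF20A, -1.75 for CDC20, -2.06 for TOP2A and -1.99 for MKI67. Serum, knockdown name and library set cannot be told apart in it, and shSIRT1 and 10 are not known to be the same knockdown. The DHT and the enzalutamide response each differed between knockdown 10 and NTC cells for 1 gene, DSN1, at -0.66 and 0.71. Of all genes, 0.158% were lower and 0.0412% higher in the DHT response, and 0.0824% and 0.268% in the enzalutamide response. The DSN1 call for DHT was lost in several fits that left out 1 library and in the limma fit of TPM (adjusted p = 0.0867). Groups of 3 libraries were too small for a test of single outlying libraries.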

How the results depend on the processing

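Of 398 counts of called genes under the alternatives, 373 equalled the main count or stayed within 1.5 times it. Counts of 0 that stayed 0 are among the 373, so they say less about the counts above 0. For called genes of the naming rule and all 9 called in knockdown 10 with DHT against NTC with vehicle, 1725 of 1767 alternative values kept direction and call, 42 lost the call and none changed sign. The replicate block gave 2 lower and 3 higher genes in FBS, 2 lower in the DHT interaction, 4 higher in the enzalutamide interaction and 8 lower and 6 higher (adding CDC25B and MKI67) in knockdown 10 with DHT against NTC with vehicle, where 21.4% of all genes were then lower and 23.9% higher. That comparison was not paired. Beyond these counts the block changed the call of CDC25B for enzalutamide in knockdown 10, and of no other member in a paired comparison. Between serum sets, where pairing was not checked, it changed the call of DSN1 alone. DESeq2 gave 2 lower in the DHT interaction and 3 higher in the enzalutamide interaction. The fit of TPM gave 0 in the DHT interaction and 2 higher in knockdown 10 with DHT against NTC with vehicle, and the fit of only the groups compared gave 0 in the DHT interaction. Leaving out 1 library gave 0 to 2 higher in FBS, 4 to 8 lower and 2 to 9 higher in knockdown 10 with DHT against NTC with vehicle, 0 to 2 lower in the DHT interaction and 1 to 3 higher in the enzalutamide interaction. Library 1 left out of the 4 stripped-serum groups where it stood apart, a setting chosen after seeing the data, gave 9 lower in knockdown 10 with DHT against NTC with vehicle and 0 in the DHT interaction. It took out the NTC vehicle library of lowest summed level, which tilts the first of these toward lower genes. The cause was not tested. Among the alternatives, shares of all genes are given for the replicate block alone. The counts under the other alternatives thus do not show whether members gained or lost calls more than other genes did. Of 608 values for results that were not called, 21 gained the call and 36 changed sign. The fit of TPM gave -0.1795 for MKI67 and -0.1527 for TTK in the DHT interaction, and 0.2083 for KIF20A and 0.3107 for CENPA in the enzalutamide interaction. Between serum sets SPC25 was -0.01697 with RLE size factors, -0.01557 by DESeq2, -0.002894 by TPM and -0.006099 with FBS libraries 1 and 2 summed, a setting chosen after seeing the data. Without single libraries, the log2 changes in FBS were -0.07106 to 0.1684 for CCNB1, -0.1328 to 0.2161 for CDK1 and -0.2308 to 0.04606 for CDC25B. SPC25 ranged from -0.1896 to 0.03722 in knockdown 10 over NTC with vehicle and from -0.1293 to 0.09613 between serum sets. CDC25B ranged from -0.1579 to 0.1313 in knockdown 10 over NTC with both compounds, from -0.07113 to 0.2146 and from -0.1984 to 0.05401 for both compounds over vehicle in knockdown 10 and in NTC cells, and from -0.1836 to 0.08393 between serum sets. Depth limits the genes of lowest count, such as CENPA.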
